A study of Mus musculus with 16 samples.

Results

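The circadian clock genes described here are 10 genes of the mouse brain transcriptome, the activators *Arntl* (also called *Bmal1*) and *Clock*, the repressors *Per1*, *Per2*, *Per3*, *Cry1* and *Ciart*, the nuclear receptors *Nr1d1* and *Nr1d2* (REV-ERB alpha and beta), and the output gene *Dbp*. They were taken by name from a table of 39179 gene identifiers, and all 10 passed the filter on low counts in every comparison. The RNA came from 16 mice, 4 in each of 4 groups: wild-type mice (MRPS5 WT) and mice homozygous for the knock-in mutation V338Y in the mitochondrial ribosomal protein MRPS5, each at 3 and at 19 months of age. V338Y makes mitochondrial translation error-prone. The mutation is in the germline, and no further allele or treatment is named for any group. The label gives the tissue as brain and the methods give it as cortex taken from female mice, and each mouse is called here by the number in its label. The hour of the day at which the mice were killed is not given in the sources used here.

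The clock is a loop of transcription and repression that runs in nearly every cell. The heterodimer of ARNTL and CLOCK binds E-box sequences and activates the *Per*, *Cry*, *Ciart*, *Nr1d* and *Dbp* genes, PER and CRY proteins return to inhibit that heterodimer, and NR1D1 and NR1D2 repress *Arntl* through ROR elements. In most tissues, cortex included, the *Arntl* transcript therefore peaks at the opposite time of day to those of *Dbp* and *Nr1d1*, while *Per1* and *Per2* also respond within the hour to neuronal activity and stress.

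Depth ranged from 6181448 to 19601664 total counts. The summed level of 8 markers of cortical projection neurons was between 680 and 880 CPM (counts scaled to a common library total) in all 16 mice. Of 10 listed markers of the suprachiasmatic nucleus (the seat of the central clock), 3 (*Nms*, *Prok2* and *Six6*) stayed below 0.5 CPM in every mouse. The others had counts in every mouse, up to 40.7 CPM (*Vip*), and the sum of the 10 was 59.5 to 82.7 CPM. Whether these counts came from that nucleus was not tested. Features other than age separated the 3-month-old from the 19-month-old mice. The sum of 10 cerebellum markers was 698 to 1211 CPM in the 3-month-old wild-type mice and 82.8 to 103 CPM in the 19-month-old ones, and in the V338Y mice it was 1322 to 1972 CPM in 3 of the 3-month-old mice, 83.0 to 104 CPM in the 19-month-old mice and 100.3 CPM in the 3-month-old mouse 14. The last one is thus a 3-month-old mouse with the cerebellum marker sum of the old mice, though its single markers differed from theirs. *Cbln1*, *Cbln3*, *Gabra6*, *Pcp2*, *En2*, *Car8* and *Barhl1* lay above the range of the old V338Y mice (*Cbln3* at 2.77 against 0.40 to 0.61 CPM). *Fat2* lay within that range, and *Zic1* (44.5 against 47.8 to 58.5 CPM) and *Zic4* lay below it. *Xist* was at 0.443 to 1.19 CPM at 3 months and 705 to 1182 CPM at 19 months, and the Y-linked *Ddx3y* was at 96.7 to 128 CPM in all 8 3-month-old mice and had a count of 0, which allows up to 3 counts, in all 8 19-month-old mice. These values go against the sex given for the 3-month-old mice, so that age and sex cannot be told apart in any comparison of ages below. Markers of other cells also rose with age (8 of 8 endothelial, 8 of 8 microglial and 7 of 8 astrocyte markers in each genotype, where 31.4% of all genes rose in the wild-type and 23.1% in V338Y mice): the endothelial sum was 234 to 254 CPM at 3 months and 1021 to 1192 CPM at 19 months, the microglial sum 221 to 312 and 486 to 560 CPM, and the astrocyte sum 2943 to 3646 and 6153 to 7490 CPM. Of 8 neuron markers, 2 rose and 5 fell in the wild-type mice, 2 rose and 4 fell in the V338Y mice, and their sum was 5010 to 5855 CPM at 3 months and 5232 to 5614 CPM at 19 months. Of 7 pituitary markers, the sum was 1.19 to 2.75 CPM at 3 months and 21.3 to 116 CPM at 19 months. The part of these cells in the clock gene values was not tested. In bulk tissue, fewer cells of a type and less RNA per cell cannot be told apart.

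Promoter sequence, the 250 bases before the transcription start, was taken from RefSeq (GRCm38.p6) for 9 of the 10 genes, *Per2* being the exception. Each window was searched on both strands for the E-box CACGTG, an E-box variant CACGTT, the D-box forms TTATGTAA and TTACGTAA that DBP can bind, the ROR element core TAGGTCA and the cAMP response element TGACGTCA. The E-box was present in 3 of the 9 windows (*Ciart*, *Cry1* and *Per1*), against 6.02% of 32851 promoter windows of all genes, and the *Ciart* window held it 3 times. The D-box TTATGTAA was present in *Per3* alone of the 9, against 0.819% of all windows, and the variant CACGTT in *Cry1* and *Nr1d1*, against 3.85%. None of the 9 windows held TTACGTAA (0.113% of all), TAGGTCA (2.23%) or TGACGTCA (1.55%). For *Arntl*, *Clock* and *Per1*, which had several windows, the first was used, and the others held none of the searched motifs. The shares over all genes counted every window. The windows below were chosen because they show a promoter with repeated E-boxes (*Ciart*, chr3:95882229-95882478, minus strand), one with an E-box beside the variant (*Cry1*, chr10:85185055-85185304, minus strand), one with D-boxes (*Per3*, chr4:151044666-151044915, minus strand) and, for the gene that rose with age, one with none of the searched motifs (*Arntl*, chr7:113207215-113207464, plus strand). Capitals mark the motifs, read 5′ to 3′.
Ciart: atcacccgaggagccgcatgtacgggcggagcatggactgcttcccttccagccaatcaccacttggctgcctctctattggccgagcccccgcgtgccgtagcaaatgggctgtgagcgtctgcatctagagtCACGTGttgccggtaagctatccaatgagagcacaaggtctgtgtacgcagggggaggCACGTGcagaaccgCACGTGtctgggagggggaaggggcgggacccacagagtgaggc
Cry1: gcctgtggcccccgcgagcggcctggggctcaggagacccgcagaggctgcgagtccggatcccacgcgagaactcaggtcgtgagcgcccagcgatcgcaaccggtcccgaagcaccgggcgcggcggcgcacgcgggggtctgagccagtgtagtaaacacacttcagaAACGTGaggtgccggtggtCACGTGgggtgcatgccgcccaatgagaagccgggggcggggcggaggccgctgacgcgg
Per3: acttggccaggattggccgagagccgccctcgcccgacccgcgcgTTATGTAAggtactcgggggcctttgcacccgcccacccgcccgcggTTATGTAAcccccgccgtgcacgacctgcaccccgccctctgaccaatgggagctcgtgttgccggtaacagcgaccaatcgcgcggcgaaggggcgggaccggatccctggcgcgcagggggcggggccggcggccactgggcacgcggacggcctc
Arntl: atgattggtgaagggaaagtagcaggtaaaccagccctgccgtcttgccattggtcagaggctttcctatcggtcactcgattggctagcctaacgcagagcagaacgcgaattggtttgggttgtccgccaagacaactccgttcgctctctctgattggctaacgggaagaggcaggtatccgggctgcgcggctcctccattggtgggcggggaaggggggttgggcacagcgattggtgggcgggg
Counted from the start, the E-boxes of *Ciart* lay at bases -116 to -111, -58 to -53 and -44 to -39, the E-box of *Cry1* at -60 to -55 with the variant on the other strand at -79 to -74, and the D-boxes of *Per3* at -205 to -198 and -158 to -151. These matches describe the letters only and were not tested as binding sites. Only exact letters within these windows were searched, so a window without a match does not show that the gene lacks the element.

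Per kilobase of exon, *Nr1d2* was the most abundant of the 10 in each group, with a level of 34.0 ± 2.16 CPM per kb (SD, n = 4) in the 3-month-old wild-type mice. *Dbp* followed at 29.4 ± 1.33 CPM per kb, and the other genes lay between 4.95 ± 0.478 (*Arntl*) and 10.4 ± 0.453 CPM per kb (*Clock*). Several neighbours in that order did not differ beyond their spread, among them *Cry1* (9.22 ± 0.357) and *Nr1d1* (9.02 ± 1.15), and *Per1* (7.75 ± 1.58), *Per2* (7.53 ± 0.883) and *Ciart* (7.06 ± 0.749). In the 19-month-old wild-type mice, *Dbp* was at 11.1 ± 0.895 CPM per kb, level with *Clock* (10.9 ± 0.402) within the spread, *Arntl* stood above *Per2* and *Per3* at 6.36 ± 0.351, and *Ciart* was lowest at 2.97 ± 0.460. The order in the 19-month-old V338Y mice was the same for all 10 genes. Levels per gene and mouse are given next as CPM, which are not scaled by length.

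**Figure D1:**
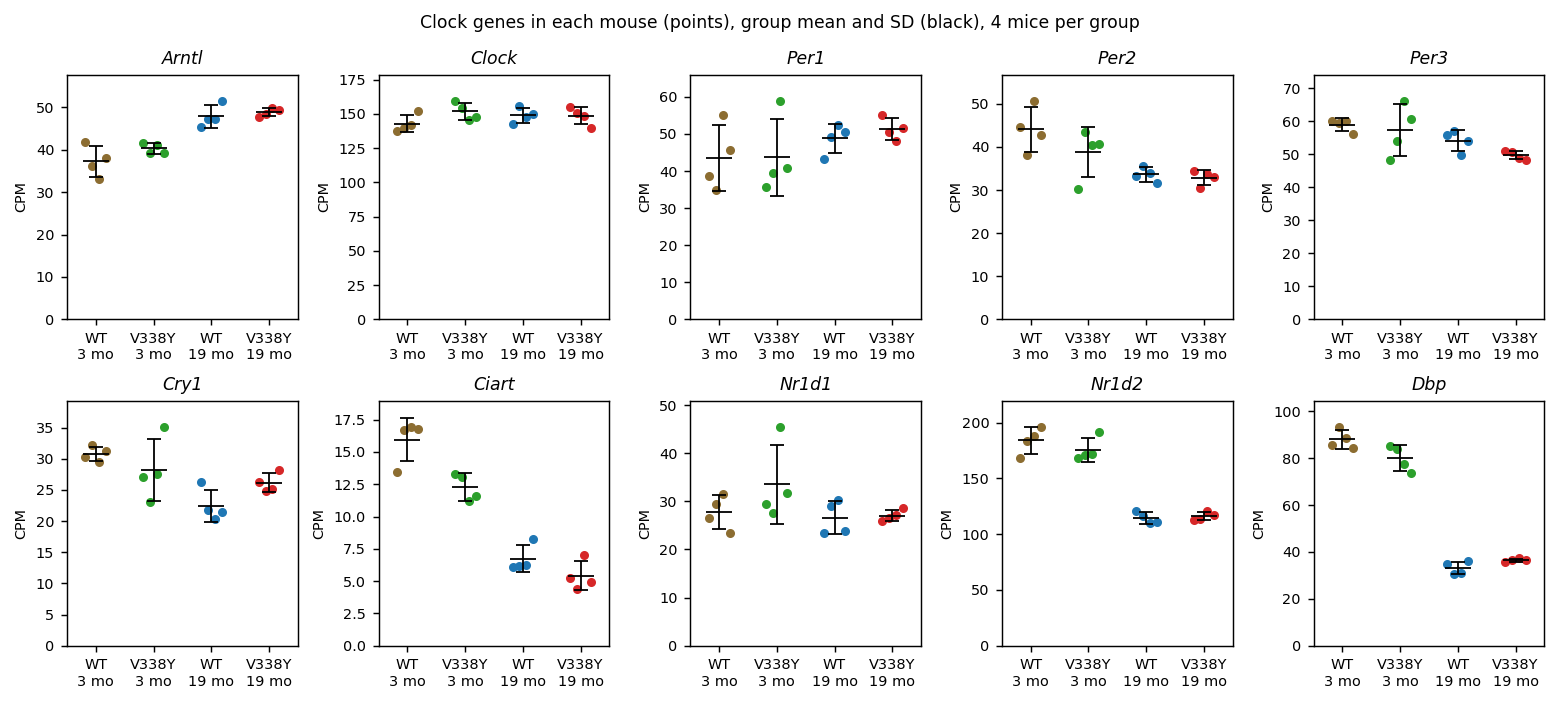
Level of the 10 clock genes in each mouse, with 1 panel per gene, the 4 groups on the x axis and CPM on the y axis from 0. Points are mice, and black bars are the group mean and SD (n = 4). *Dbp*, *Ciart* and *Nr1d2* sit lower and *Arntl* higher at 19 months, with no overlap between ages in either genotype.

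The first question was how the loop differed between young and old mice. In both genotypes, the output gene *Dbp*, the repressor *Ciart* and the receptor *Nr1d2* were lower at 19 than at 3 months and the activator *Arntl* was higher. *Dbp* was at 0.376 of its young level in the wild-type mice and 0.453 in the V338Y mice, *Ciart* at 0.410 and 0.441, and *Nr1d2* at 0.627 and 0.657, while *Arntl* was at 1.29 and 1.21 times its young level. In the wild-type mice, *Cry1* and *Per2* were also lower, whereas *Clock*, *Per1*, *Per3* and *Nr1d1* did not pass the test in either genotype. By edgeR's quasi-likelihood test, with p adjusted after Benjamini-Hochberg over all genes tested, 1 of the 10 rose and 5 fell in the wild-type mice, and 1 rose and 3 fell in the V338Y mice. Over all genes, 31.4% rose and 31.5% fell in the wild-type mice (62.8% of 16101 in all), and 23.1% rose and 25.7% fell in the V338Y mice (48.8% of 16770). The shares of clock genes called, 6 of 10 and 4 of 10, were thus near those over all genes. The ages stood apart without overlap for the same 6 and 4 genes, as they did for 55.4% and 44.1% of all genes. The median log2 fold change of the 10 genes was -0.24 in wild-type mice and -0.23 in V338Y mice, against -0.005 and -0.03 over all genes tested.

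**Figure D2:**
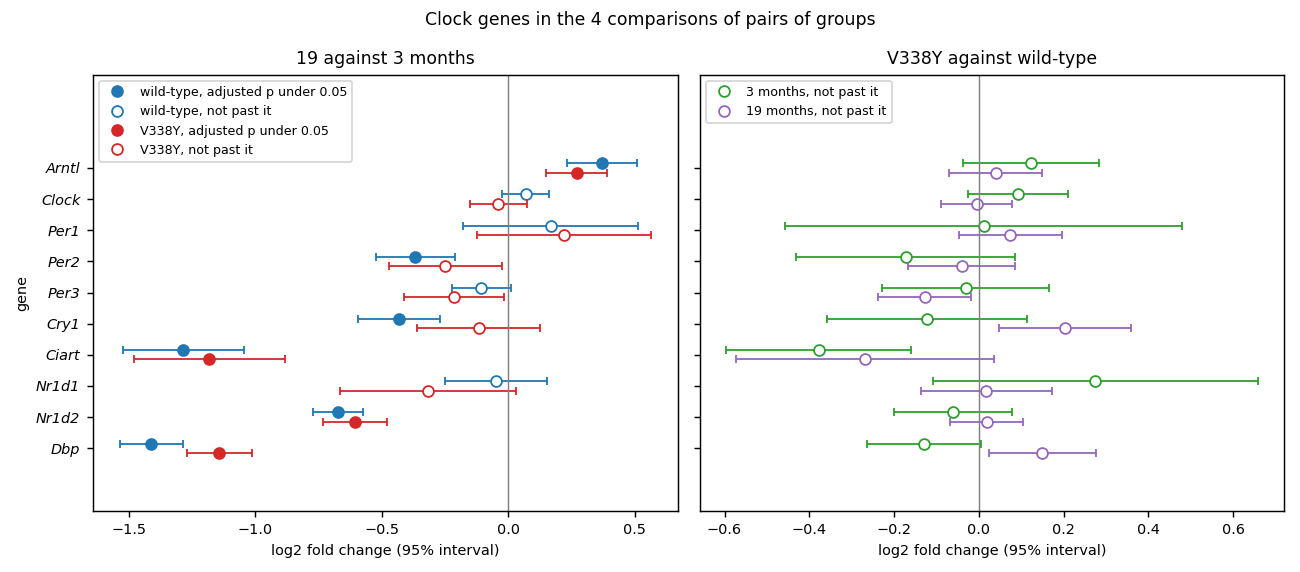
Log2 fold change of each clock gene with its 95% interval. The left panel gives 19 against 3 months in wild-type (blue) and V338Y mice (red), the right panel V338Y against wild-type at 3 (green) and 19 months (purple), and filled circles mark an adjusted p under 0.05, which 6 genes reached with age in wild-type mice, 4 in V338Y mice and none between the genotypes.

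Among the activators, *Arntl* (chr7:113207465-113314126, GRCm38) was at 41.8, 36.2, 33.1 and 37.9 CPM in the 4 wild-type mice at 3 months and at 45.3, 47.3, 47.2 and 51.5 CPM at 19 months. V338Y mice had 41.6, 39.2, 41.2 and 39.2 CPM at 3 months and 47.6, 48.5, 49.8 and 49.4 CPM at 19 months. Every old mouse was above every young mouse of its genotype, and the step was small beside that of *Dbp*. The log2 fold change was 0.37 (SE 0.069, adjusted p = 2.33e-05) in wild-type mice and 0.27 (SE 0.056, adjusted p = 0.00164) in V338Y mice. *Clock* (chr5:76209868-76304792), the partner of *Arntl*, ranged from 138 to 152 CPM in the young and from 142 to 156 CPM in the old wild-type mice, and its log2 fold change was 0.07 (SE 0.046, adjusted p = 0.187). The *Clock* ranges in the young and old V338Y mice were 145 to 159.5 and 140.0 to 155 CPM, and the log2 fold change was -0.04 (SE 0.052, adjusted p = 0.569). The ages overlapped in both genotypes, and the 95% intervals of the *Clock* change (-0.02 to 0.16 and -0.15 to 0.07) spanned 0.

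The output gene *Dbp* (chr7:45705088-45710203) encodes a transcription factor that drives D-box genes of metabolism and detoxification. It was at 85.7, 93.3, 88.8 and 84.3 CPM in the wild-type mice at 3 months and at 34.8, 30.6, 31.1 and 36.0 CPM at 19 months. The V338Y mice had 85.2, 84.2, 77.5 and 73.7 CPM at 3 months and 35.6, 36.5, 37.2 and 36.7 CPM at 19 months. The lowest young mouse of the 8 thus stood well above the highest old one, and the 4 old V338Y mice were nearly equal. The log2 fold change was -1.41 (SE 0.061, adjusted p = 1.11e-18) in wild-type mice and -1.14 (SE 0.06, adjusted p = 1.68e-08) in V338Y mice, and these ranked 151 of 16101 and 246 of 16770 genes from the lowest. The exons of *Dbp* share 539 bases with *Sphk2* on the opposite strand, and whether the authors' counting used strand is not given in the sources used here, so reads of the pair cannot be told apart there. *Sphk2* had 138 to 514 counts per mouse and log2 fold changes of -0.21 (adjusted p = 0.0226, edgeR) and -0.005 (0.961).

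Of the repressors, *Ciart* (chr3:95878503-95882251), whose product inhibits ARNTL and CLOCK, had the lowest CPM of the 10. It was at 13.4, 16.7, 16.9 and 16.8 CPM in the young and 6.12, 6.20, 6.28 and 8.28 CPM in the old wild-type mice. Young V338Y mice had 13.3, 13.04, 11.2 and 11.6 CPM and old ones 5.25, 4.39, 7.0 and 4.96 CPM. No old mouse reached the level of a young one. The log2 fold change was -1.28 (SE 0.117, adjusted p = 5.95e-11) in wild-type mice and -1.18 (SE 0.138, adjusted p = 2.04e-05) in V338Y mice. These values rest on few counts, from 49 to 259 per mouse.

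*Cry1* (chr10:85131700-85185064), the cryptochrome that holds the loop in repression, was at 30.3, 32.2, 29.4 and 31.2 CPM in the young and 26.3, 21.8, 20.4 and 21.5 CPM in the old wild-type mice. These did not overlap, and the log2 fold change was -0.43 (SE 0.079, adjusted p = 2.03e-05). *Cry1* in the V338Y mice was at 27.1, 23.0, 27.6 and 35.1 CPM at 3 months and 26.3, 24.9, 25.1 and 28.2 CPM at 19 months. Young V338Y mice held both the lowest and the highest of these 8 values, and the log2 fold change was -0.12 (SE 0.112, adjusted p = 0.411). *Per2* (chr1:91415982-91459324) was at 44.6, 38.2, 50.7 and 42.8 CPM in the young and 33.3, 35.6, 33.9 and 31.6 CPM in the old wild-type mice, with no overlap and a log2 fold change of -0.37 (SE 0.075, adjusted p = 0.000108). Young V338Y mice had 30.3, 43.6, 40.5 and 40.6 CPM of *Per2* and old ones 34.4, 30.4, 33.7 and 33.0 CPM, with a log2 fold change of -0.25 (SE 0.102, adjusted p = 0.0624). Among the young V338Y mice, mouse 13 alone was as low as the old ones, and without it the log2 fold change was -0.34 (adjusted p = 0.00198).

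*Per1* (chr11:69095217-69109960) and *Per3* (chr4:151003652-151044665) did not pass the test in either genotype. *Per1*, the *Per* gene that responds most readily to neuronal activity, was at 38.7, 35.0, 55.2 and 45.7 CPM in the young and 43.3, 49.2, 52.3 and 50.5 CPM in the old wild-type mice. Young V338Y mice had 35.7, 39.5, 58.9 and 40.8 CPM and old ones 55.2, 50.6, 48.2 and 51.5 CPM. One young mouse in each genotype stood above all old mice of that genotype, mouse 11 in the wild-type and mouse 15 in the V338Y group. With all mice the log2 fold change was 0.17 (SE 0.148, adjusted p = 0.355) in wild-type and 0.22 (SE 0.152, adjusted p = 0.263) in V338Y mice, and without mouse 11 or mouse 15 these were 0.30 (adjusted p = 0.00324) and 0.41 (0.000289). Whether *Per1* passed thus turned on 1 library in each genotype. *Per3* ranged from 56.0 to 60.2 and from 49.8 to 57.0 CPM in the young and old wild-type mice, and from 48.4 to 66.2 and 48.4 to 51.0 CPM in the V338Y mice. Its log2 fold changes were -0.11 (SE 0.057, adjusted p = 0.109) and -0.21 (SE 0.091, adjusted p = 0.0704), and the ages overlapped in both genotypes. It passed in the V338Y mice without mouse 13 (-0.28, adjusted p = 0.0097) and without mouse 14 (-0.23, 0.0405).

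Of the nuclear receptors that repress *Arntl*, *Nr1d2* passed the test in both genotypes and *Nr1d1* in neither. *Nr1d2* (chr14:18204054-18239127) was at 168, 184, 188 and 196 CPM in the young and 121, 116, 109.6 and 111 CPM in the old wild-type mice. V338Y mice had 168, 171, 172 and 191 CPM at 3 months and 113, 114, 120.5 and 117 CPM at 19 months. The ages stood far apart in both genotypes. The log2 fold change was -0.67 (SE 0.049, adjusted p = 3.44e-13) in wild-type mice and -0.60 (SE 0.058, adjusted p = 3.68e-06) in V338Y mice. *Nr1d1* (chr11:98767932-98775333) was at 26.5, 29.5, 31.6 and 23.5 CPM in the young and 23.4, 29.0, 30.3 and 23.8 CPM in the old wild-type mice, which overlapped, and the log2 fold change was -0.05 (SE 0.097, adjusted p = 0.691). Its level in the V338Y mice was 29.4, 27.5, 45.5 and 31.7 CPM at 3 months, with mouse 15 far above the other 3, and 26.0, 26.5, 27.1 and 28.6 CPM at 19 months. The log2 fold change was -0.32 (SE 0.155, adjusted p = 0.12), and it was -0.39 (adjusted p = 0.0318) without mouse 14 and -0.12 (adjusted p = 0.159) without mouse 15. *Nr1d1* shares 263 exonic bases with *Thra* on the opposite strand, which had 2306 to 8806 counts per mouse and log2 fold changes of -0.17 (adjusted p = 0.00336, edgeR) and -0.07 (0.453), and the same limit holds for it.

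Because the cerebellum marker level differed between the ages, a comparison was added after seeing the data, in which the 3-month-old V338Y mouse 14, picked for its marker sum, was set alone against the 4 old V338Y mice. Mouse 14 had 84.2 CPM of *Dbp*, 13.04 CPM of *Ciart* and 171 CPM of *Nr1d2*, each within the range of the other 3 young V338Y mice, and 39.2 CPM of *Arntl*, level with the lowest of them. All 4 values lay outside the range of the old V338Y mice. The log2 fold changes of 19 against 3 months were -1.21 for *Dbp*, -1.26 for *Ciart*, -0.56 for *Nr1d2* and 0.32 for *Arntl*, where they were -1.14, -1.18, -0.60 and 0.27 with all 4 young mice. For *Cry1* the value was 0.18, in the other direction from the -0.12 with all 4 young mice. The remaining genes had -0.41 (*Per2*), 0.37 (*Per1*), -0.125 (*Per3*), -0.03 (*Nr1d1*) and -0.06 (*Clock*) against mouse 14. With all 4 young mice these were -0.25, 0.22, -0.21, -0.315 and -0.04. These are differences from 1 mouse, and no test is given for them. The fit of all 8 V338Y mice was repeated with the mean log2 CPM of the 10 cerebellum markers, not their sum, as a covariate. Its log2 fold changes were -1.21 for *Dbp*, -1.28 for *Ciart*, -0.54 for *Nr1d2* and 0.34 for *Arntl*, but there too mouse 14 alone separates the marker level from age. In the wild-type mice none of the 10 genes passed with the covariate, and the marker sums of the ages did not overlap, so that age and cerebellum content cannot be told apart.

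**Figure D3:**
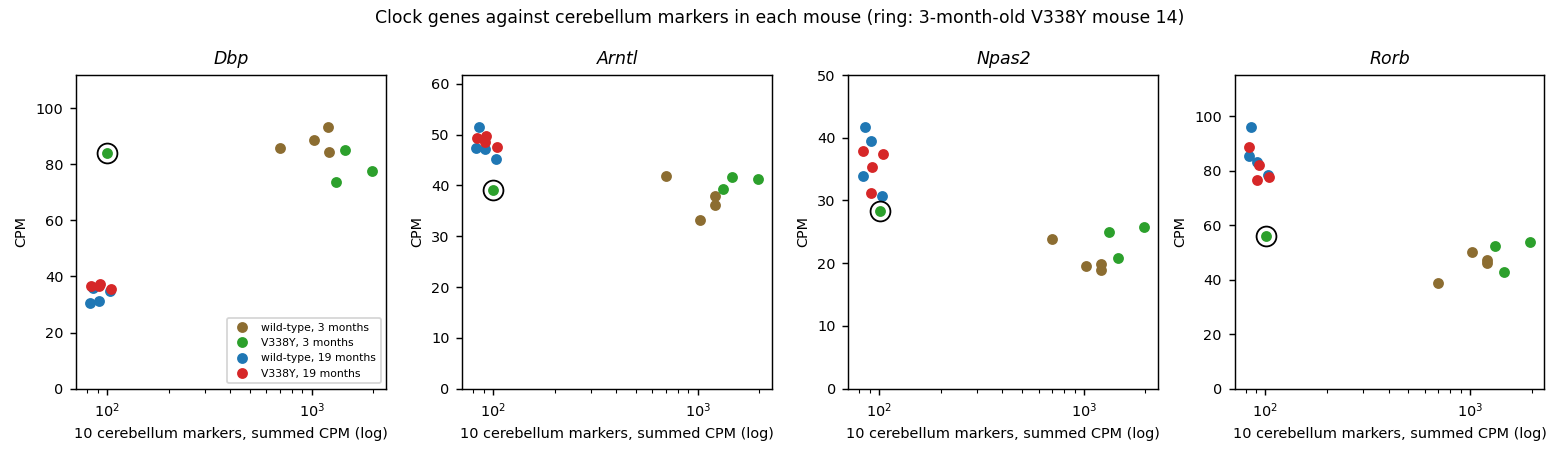
Level (CPM, y axis from 0) of *Dbp*, *Arntl*, *Npas2* and *Rorb* against the summed CPM of 10 cerebellum markers (log x axis) in each of the 16 mice, coloured by group. The ringed point, 3-month-old V338Y mouse 14 with a marker sum of 100.3 CPM, lies among the old mice on the x axis and with the young mice on the y axis for *Dbp* (84.2 CPM) and *Arntl* (39.2 CPM). For *Npas2* (28.3 CPM) and *Rorb* (56.1 CPM) this mouse is the highest of the young mice and below every old mouse.

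A list of 22 other genes of the clock, its kinases, its ubiquitin ligases and its output factors was examined alongside. With age, 5 rose and 9 fell in the wild-type mice, and 3 rose and 6 fell in the V338Y mice. These 14 and 9 of 22 genes stand against 62.8% and 48.8% of all genes and are no result about the list. The steepest changes were rises. *Npas2*, which can replace *Clock* as the partner of *Arntl*, was at 23.8, 18.9, 19.5 and 19.9 CPM in the young and 30.7, 33.8, 39.5 and 41.7 CPM in the old wild-type mice, while young and old V338Y mice had 20.9, 28.3, 25.7 and 25.0 and 37.4, 31.2, 35.3 and 37.9 CPM. All old mice were above all young mice, with log2 fold changes of 0.83 (SE 0.092, adjusted p = 2.42e-08) in wild-type mice and 0.49 (SE 0.096, adjusted p = 0.00108) in V338Y mice. *Rorb*, a nuclear receptor that acts at ROR elements and also marks neurons of cortical layer IV, was at 38.7, 46.3, 50.3 and 47.1 CPM in the young and 78.4, 85.6, 83.3 and 96.1 CPM in the old wild-type mice. *Rorb* in the V338Y mice was at 42.9, 56.1, 53.7 and 52.3 CPM at 3 months and 77.9, 76.4, 82.0 and 88.9 CPM at 19 months. Again the ages did not overlap, with log2 fold changes of 0.91 (SE 0.069, adjusted p = 3.94e-11) and 0.66 (SE 0.086, adjusted p = 5.82e-05). Against mouse 14 alone, which was the highest of the young mice for both genes, the log2 fold changes were 0.32 for *Npas2* and 0.53 for *Rorb*, with no test.

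The other named genes of that list changed by less. *Fbxl21*, an F-box protein that targets cryptochromes, had log2 fold changes of 0.48 (SE 0.194, adjusted p = 0.0364) in wild-type mice and 0.16 (SE 0.145, adjusted p = 0.381) in V338Y mice. *Fbxw11* and *Btrc*, which recognise phosphorylated PER proteins for degradation, fell in the wild-type mice, by 0.40 and 0.28 on the log2 scale (adjusted p = 5.41e-09 and 3.53e-06). Their log2 fold changes in the V338Y mice were -0.30 (adjusted p = 0.00117) and -0.08 (0.355). *Prkaa1*, a subunit of the AMP-activated kinase that phosphorylates CRY1, and *Csnk1e*, a casein kinase of PER proteins, had log2 fold changes of -0.34 (adjusted p = 0.000127) and -0.27 (4.07e-05) in wild-type mice and of -0.33 (0.000615) and -0.21 (0.0126) in V338Y mice. *Nfil3*, which represses D-box genes that DBP activates, had log2 fold changes of -0.35 (SE 0.125, adjusted p = 0.0153) in wild-type mice and -0.24 (SE 0.122, adjusted p = 0.121) in V338Y mice.

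The second question was whether V338Y altered the clock genes at either age. At 3 months, 0 of the 10 genes passed the edgeR test, against 0.0616% of 16241 genes tested, and 0 passed with DESeq2 or the likelihood-ratio test. At an unadjusted p under 0.05 there was 1 gene, *Ciart*, against 5.02% of all genes. The *Ciart* values given above did not overlap between the genotypes, 13.4 CPM in the lowest wild-type and 13.3 CPM in the highest V338Y mouse, which was the case for 3.23% of all genes. Its log2 fold change of V338Y against wild-type was -0.38 (SE 0.101, 95% interval -0.60 to -0.16), with an adjusted p of 0.848. The remaining 9 genes had log2 fold changes from -0.17 (*Per2*) to 0.28 (*Nr1d1*), and the 95% interval of *Nr1d1* was -0.11 to 0.66, with mouse 15 far above the other mice.

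At 19 months, 0 of the 10 passed, against 3.12% of 16420 genes, and 0 passed with DESeq2 or the likelihood-ratio test. At an unadjusted p under 0.05 there were 3, against 16.2% of all genes. *Cry1* had a log2 fold change of 0.20 (95% interval 0.05 to 0.36, adjusted p = 0.155), *Dbp* of 0.15 (0.02 to 0.28, adjusted p = 0.21) and *Per3* of -0.13 (-0.24 to -0.02, adjusted p = 0.215), and for none of the 10 did the genotypes stand apart without overlap (9.32% of all genes). Without wild-type mouse 12, which had the highest *Cry1* level of its group (26.3 CPM), the log2 fold change of *Cry1* was 0.30 (adjusted p = 0.026). *Ciart* was again lower in the V338Y mice on average (-0.27, 95% interval -0.57 to 0.04), but did not pass (adjusted p = 0.384). For *Arntl*, *Clock*, *Per2*, *Nr1d1* and *Nr1d2* the log2 fold changes lay between -0.04 and 0.04.

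The age effects of the 2 genotypes were compared as an interaction over all 16 mice. None of the 10 genes passed, against 0.0535% of 16831 genes, and 0 passed with DESeq2 or the likelihood-ratio test. At an unadjusted p under 0.05 there were 2, against 10.2% of all genes. The fall of *Dbp* with age was smaller in the V338Y mice by 0.29 on the log2 scale (SE 0.087, 95% interval 0.10 to 0.47, adjusted p = 0.254), and the corresponding difference of *Cry1* was 0.34 (0.04 to 0.63, adjusted p = 0.436). The calls on *Cry1* and *Per2* in the wild-type mice only are therefore not shown to differ between the genotypes.

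The third question was how the genes stood to each other within a mouse, which does not depend on library size. The log2 CPM of *Dbp* minus that of *Arntl* was 1.04 to 1.42 in the young wild-type and 0.91 to 1.10 in the young V338Y mice, and -0.63 to -0.38 and -0.43 to -0.41 in the old mice. *Dbp* was thus above *Arntl* in CPM in all 8 young mice and below it in all 8 old mice. *Ciart* minus *Arntl* was -1.63 to -0.96 and -1.87 to -1.58 in the young groups and -2.90 to -2.62 and -3.42 to -2.80 in the old groups. *Nr1d2* minus *Clock* was above 0 in every young mouse (0.08 to 0.40 over both genotypes) and below 0 in every old mouse (-0.46 to -0.24). These changes of sign hold for CPM, which are not scaled by length. Per kb of exon, *Dbp* stayed above *Arntl* (11.1 against 6.36 CPM per kb) and *Nr1d2* above *Clock* (21.1 against 10.9) in the old wild-type mice. The direction of *Arntl* was opposite to that of *Dbp*, *Ciart* and *Nr1d2*, whereas *Nr1d1* and *Per3*, which in most tissues peak near *Dbp*, did not pass the age test and *Clock* did not either. No hour of sampling is given, so its part in these differences was not tested.

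**Figure D4:**
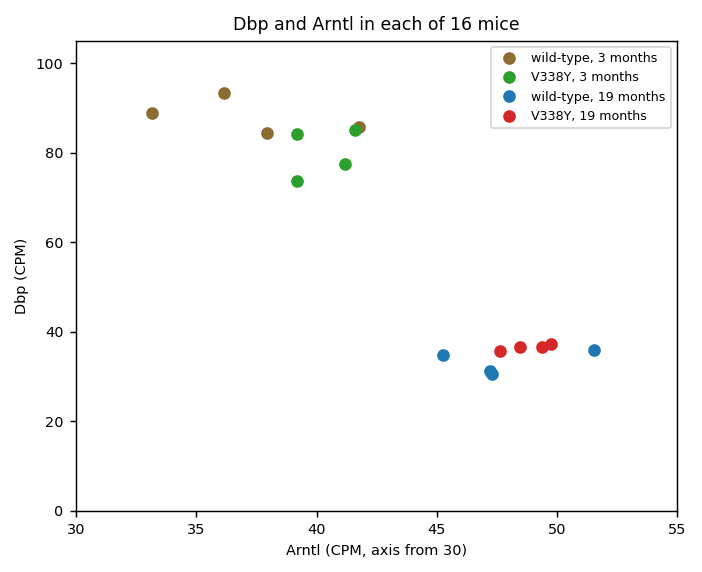
CPM of *Dbp* (y axis from 0) against CPM of *Arntl* (x axis from 30) in each of the 16 mice, coloured by group. The 8 young mice lie at 73.7 to 93.3 CPM of *Dbp* and the 8 old mice at 30.6 to 37.2 CPM, and the *Arntl* values of the ages, 33.1 to 41.8 and 45.3 to 51.5 CPM, do not overlap.

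The coefficient of variation of the 10 genes was 3.31% to 20.4% in the young wild-type (median 8.01%) and 3.16% to 24.2% in the young V338Y mice (median 11.1%). It was 3.70% to 15.5% (median 6.87%) in the old wild-type and 1.83% to 20.8% (median 4.17%) in the old V338Y mice. Deviations of log2 CPM from the group mean were correlated between all 45 pairs of the 10 genes over the 16 mice. None of the 45 passed after Benjamini-Hochberg adjustment (permutation test within groups, lowest adjusted p = 0.544), for Pearson's r or for Spearman's rho, and 16 of the r values were positive. For Pearson's r, 2 pairs had an unadjusted permutation p under 0.05, and for Spearman's rho none did. *Dbp* and *Ciart* had r = 0.51 (two-sided permutation p = 0.023) and rho = 0.50 (0.0573), and r = 0.39 without the 2 mice farthest from the median of *Dbp*. *Nr1d2* and *Cry1* had r = 0.62 (permutation p = 0.0242) and rho = 0.52 (0.0661), and r = 0.55 without the 2 farthest mice. *Dbp* and *Arntl*, which moved in opposite directions between the ages, had r = 0.04 within groups.

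In the young wild-type mice, the sum of companion genes of *Per1* was highest in the same mouse as *Per1*. In the young V338Y mice it was not. The sum of 11 immediate early genes, which report recent neuronal activity, was 271, 278, 505 and 446 CPM in young wild-type mice 9, 10, 11 and 12, and mouse 11 was also the highest of its group for *Per1* (55.2 CPM) and *Per2* (50.7 CPM). In the young V338Y mice 13 to 16 the sum was 329.7, 305, 265 and 212 CPM, and mouse 15, the highest for *Per1* (58.9 CPM), *Per3* (66.2 CPM) and *Nr1d1* (45.5 CPM), was not the highest for that sum. The old mice had sums of 480 to 513 CPM (wild-type) and 432 to 464 CPM (V338Y).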

How the data were processed

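RNA of 16 mice was sequenced. The authors' methods name quantification of single-end reads by RSEM, which gives an expected count per gene, and the deposited values were taken to be such counts, without normalization, because they are whole numbers whose totals differ between mice. The methods also name Ensembl 75 and GRCm37, whereas the submitters' processing notes name STAR 2.4.2a, featureCounts and GRCm38, a difference that could not be resolved from the sources used here. Deposited counts were whole numbers, and all 1495 values of 10000 or more ended in 0, so that 4 significant digits were kept. The label's extraction text names muscle, while the tissue label is brain. Samples were grouped by the genotype and age in their labels. Nothing states that mice shared a litter or batch. The labels of all old mice end in -N and those of all young mice do not. The meaning of this mark, which follows age, is not given.

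Counts were analysed in R 4.3.3 with edgeR 4.0.16. For each pair of groups (8 libraries), a gene was kept if 2 or more of the 4 mice in either group had 10 or more counts, scaled with TMM and tested with the robust quasi-likelihood test, with Benjamini-Hochberg adjustment over all genes tested and a threshold of 0.05. The interaction of age and genotype used all 16 libraries. Log2 CPM used a prior count of 2. CPM per kb used the exon length of GENCODE M21 (GRCm38), matched by Ensembl identifier, which also gave positions. Within-group correlations used 100000 permutations of mice within groups. Depth, from 6181448 to 19601664 total counts, limits *Ciart* most, and intervals cover the spread between 4 mice. On simulated counts with changed genes of known fold, the age test in wild-type mice recovered 78.6% of genes changed by 1.5-fold (15785 genes), and the interaction test 57.7% (16537 genes). Of the genes called there, 6.82% and 7.25% were false. Each simulation changed 200 genes, far fewer than passed for age in the real data, so these rates need not hold there.

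Alternatives were DESeq2 1.42.0, the likelihood-ratio test, another scaling, no scaling factor, no filter, thinning to 6181448 counts, a cerebellum marker covariate, a joint fit and leaving out each mouse. The covariate was the mean log2 CPM of the 10 cerebellum markers in each mouse. The comparison with mouse 14 as the only young V338Y mouse was added after seeing the data. The 10 clock genes and all gene lists were chosen with earlier results of these data known. Named were all 10 clock genes, the 8 other clock genes with the largest change among those past the threshold, the 2 such genes of each companion list, and, for *Dbp* and *Arntl*, the 8 genes with the highest and the 4 with the lowest correlation, of which 1 gene is not reported here. *Sphk2* and *Thra* were named for their overlap with clock genes, and marker and sex-linked genes after their values were seen.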

Additional observations from a re-analysis of the deposited data

Results flagged for a closer look

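Of 40 sets of 4 mice (10 clock genes in 4 groups), 2 held a mouse that stood apart from the other 3, and chance alone flags about 1 set in 20. Both concerned *Ciart*, the clock gene with the fewest counts. Among the young wild-type mice, mouse 9 was at 13.4 CPM, where the other 3 lay between 16.7 and 16.9 CPM (gap of 0.949 of the group's range), and this value was the one closest to the V338Y mice. Among the old wild-type mice, mouse 15 was at 8.28 CPM, where the other 3 lay between 6.12 and 6.28 CPM (0.915 of the range). The fall of *Ciart* with age in the wild-type mice was a log2 fold change between -1.36 and -1.24 when each of the 8 mice was left out in turn.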

How the results depend on the processing

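Of the 450 values of single clock genes under the alternatives that kept all mice or set mouse 14 alone, 425 kept their direction and their side of the threshold, and of the 480 values with a mouse left out, 456 did. With the cerebellum marker covariate, 101 genes and 0 clock genes passed for age in the wild-type mice, where the log2 fold changes reversed for *Ciart* (1.08), *Arntl* (-0.54), *Cry1* (0.27) and *Nr1d2* (0.49) and were -0.81 for *Dbp* (adjusted p = 0.647) and -1.34 for *Per2* (0.55). In those mice the covariate and age do not overlap. In the V338Y mice, where mouse 14 alone separates the covariate from age, 4839 genes passed with it, and *Cry1* (0.26) and *Nr1d1* (0.11) reversed, and 164 and 159 genes passed for genotype at 19 months and for the interaction. With mouse 14 as the only young V338Y mouse, *Cry1* was at 0.18, a difference from 1 mouse with no test. For genotype at 3 months, 10 genes passed, and 20 without the filter, 26 with DESeq2, 26 with the likelihood-ratio test, 6 after thinning and 23 in the joint fit of 16 libraries. For genotype at 19 months, 512 passed, and 791 without the filter, 302 after thinning and 120 in the joint fit. For the interaction, 9 passed, and 32 without the filter, 37 with DESeq2, 35 with the likelihood-ratio test and 1 after thinning. Under each of these, 0 clock genes passed between the genotypes or for the interaction. Scaling by library size only changed the split of calls with age in the wild-type mice from 5050 higher and 5065 lower to 4175 and 6321, and at 19 months between the genotypes from 196 higher and 316 lower to 357 and 263. It added *Per3* in the wild-type mice (-0.20, adjusted p = 0.00431) and *Per2* (-0.31, 0.019) and *Per3* (-0.27, 0.0216) in the V338Y mice. *Per2* and *Per3* also passed in the V338Y mice without the filter (-0.26, adjusted p = 0.0445, and -0.22, 0.0396) and in the joint fit (-0.24, 0.034, and -0.20, 0.0207). Values near 0 reversed, *Clock* with library size only (-0.023 for age in the wild-type mice, 0.017 for genotype at 19 months), without the filter (0.006) and after thinning (0.006), and after thinning *Nr1d1* for age in the wild-type mice (0.089), *Per1* at 3 months (-0.017) and *Arntl* at 19 months (-0.019). The causes were not tested.

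With each mouse left out, 6 to 7 clock genes passed with age in the wild-type mice and 4 to 6 in the V338Y mice. Between the genotypes, 6 to 13 genes passed at 3 months (6 without wild-type mouse 12) and 287 to 611 at 19 months (294 without wild-type mouse 13, 287 without V338Y mouse 19), with 0 to 1 clock genes, *Cry1* without wild-type mouse 12. For the interaction, 1 to 57 passed (1 without young wild-type mouse 10, 57 without V338Y mouse 14, 18 without V338Y mouse 15 or 16, 4 or 5 without any of the old wild-type mice 13, 14 and 15, 4 without V338Y mouse 19 and 14 without V338Y mouse 17). Ranges crossed 0 for *Nr1d1* (-0.12 to 0.028) with age in the wild-type mice, for *Cry1* (-0.20 to 0.015) with age in the V338Y mice, for *Per3* (-0.12 to 0.048) and *Per1* (-0.18 to 0.15) at 3 months, for *Clock* (-0.031 to 0.024), *Nr1d2* (-0.001 to 0.046) and *Nr1d1* (-0.056 to 0.084) at 19 months, and for *Per1* (-0.061 to 0.25) and *Ciart* (-0.063 to 0.21) in the interaction. No paired analysis was possible because the groups compared share fewer than 2 mouse numbers, and the number shared by the wild-type groups belongs to different mice. The low counts of *Ciart* limit its precision.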

Other observations

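Lists of genes that respond to glucocorticoids, to temperature and to neuronal activity, signals that also reach the clock, were examined for the same mice. Of 10 glucocorticoid-responsive genes, 3 rose and 3 fell with age in the wild-type mice and 4 rose and 2 fell in the V338Y mice (edgeR, Benjamini-Hochberg), against 62.8% and 48.8% of all genes past the threshold. *Sult1a1*, a sulfotransferase, had a log2 fold change of 1.17 (SE 0.11, adjusted p = 1.08e-10) in wild-type mice and 0.85 (SE 0.119, adjusted p = 9.04e-05) in V338Y mice. *Cdkn1a*, the cell cycle inhibitor p21, had 0.66 (SE 0.132, adjusted p = 6.94e-05) and 0.85 (SE 0.145, adjusted p = 0.000391). Of 10 temperature-responsive genes, 1 rose and 5 fell in the wild-type mice and 3 rose and 2 fell in the V338Y mice, again near those shares. The small heat shock protein gene *Hspb1* rose by 1.51 (SE 0.123, adjusted p = 4.5e-12) and 1.75 (SE 0.159, adjusted p = 3.03e-06) on the log2 scale, and *Hspa1b* had values of 0.38 (adjusted p = 0.0549) and 0.74 (adjusted p = 0.00116). Of 11 immediate early genes, 2 rose in wild-type mice and 6 in V338Y mice, where 31.4% and 23.1% of all genes rose. *Arc*, a synaptic plasticity gene, had log2 fold changes of 0.63 (SE 0.274, adjusted p = 0.0895) and 0.96 (SE 0.202, adjusted p = 0.00585), and *Dusp1*, a phosphatase of MAP kinases, 0.51 (adjusted p = 0.0733) and 0.68 (adjusted p = 0.00153). Between the genotypes at 19 months 2 immediate early genes were lower in the V338Y mice, *Arc* by a log2 fold change of -0.21 (SE 0.042, adjusted p = 0.00266) among them, where 3.12% of all genes passed. None of the 3 lists had a gene past the threshold at 3 months between the genotypes or in the interaction.

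Among 11235 genes with a mean log2 CPM of at least 3, the genes whose deviations from the group mean over 16 mice correlated most with those of *Dbp* included *Ppp5c* (r = 0.91), *Fig4*, *Osbpl10*, *Ankrd49*, *Ppp2r5b*, *Usp39* and *Kcna6* (r = 0.81), and at the other end *Zfp783* (r = -0.82), *Obsl1*, *Mettl4* and *Afap1* (r = -0.77). For *Arntl* these were *Mgat4b* (r = 0.85), *Cpne2*, *Tmc7*, *Gnpat*, *Tmem120a*, *Rab43*, *Trpc1* and *Klf11* (r = 0.76), and *Mfap1a* (r = -0.86), *Pgm2*, *D3Ertd254e* and *Mkx* (r = -0.79). None of these is a gene of the clock lists. With so many genes and 16 mice, values of this size are given as a description only.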
